A study of Drosophila melanogaster with 25 samples.

Results

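The clock neurons of the adult Drosophila melanogaster brain were compared between ZT14 and ZT02, that is 14 h and 2 h after lights on, in droplet-based single-cell data. Brains came from a stable line that carried TH-GAL4, which drives in dopaminergic neurons (DANs), together with Clk856-GAL4, which drives in clock neurons, and both labelled the cells with EGFP, so that the droplet cells carried both drivers at either time. CEL-seq2 libraries of the TH-GAL4 line, without Clk856-GAL4, 4 at ZT14 and 4 at ZT02, are used only where named. Flies were entrained to light-dark cycles of equal day and night, equal numbers of males and females were pooled, GFP- and Hoechst-positive cells were sorted, and 1 10X Chromium 3′ library was made at each time point. The authors state that Clk856-GAL4 misses most DN3 clock neurons, and the number of DN3 cells in these data was not measured. A cell was taken as a clock neuron where the UMIs (unique molecular identifiers, 1 per captured transcript) of tim, vri, Clk and cry summed to 3 or more and Vmat, the vesicular monoamine transporter of DANs, had 1 UMI or less. This gave 517 of 2296 cells at ZT14 and 509 of 2888 cells at ZT02, together 1026 of 5184 droplet cells and of 6700 cells of the series.

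The fly clock is a transcriptional feedback loop. CLK and CYC activate per and tim around dusk, the PER and TIM proteins then enter the nucleus and repress CLK/CYC, and a second loop is closed by VRI and PDP1, which repress and activate Clk. CRY is the blue light photoreceptor that leads TIM to degradation, and CWO represses CLK/CYC targets. The neurons that run this loop set behavioural rhythms and differ in the neuropeptides they release, with Pdf in ventral lateral neurons, CCHa1 in anterior dorsal neurons, CNMa in posterior dorsal neurons, and NPF or AstC in other lateral and dorsal neurons.

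Because each time point was a single library, no test between the times was possible. The library and the time of day cannot be told apart, cells are not replicates, and every interval below is an exact 95% interval that covers counting error only. Levels are given as UMIs of a gene per 10000 UMIs of the cells summed (TP10K), and a ratio is the level at ZT14 over the level at ZT02. The clock neurons held 5416617 UMIs at ZT14 (median 10154 per cell) and 4396632 at ZT02 (median 8300), and all droplet cells had 1012 to 24568 UMIs at ZT14 and 1002 to 24718 at ZT02. The libraries shared 0 cell barcodes. As a measure of what both libraries show outside clock neurons, the same ratios were computed for 914 DANs at ZT14 and 1366 DANs at ZT02 (2 Vmat UMIs or more, tim, vri, Clk and cry together 2 or less) from the same droplet runs.

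The label was checked against markers. nSyb, a synaptic vesicle protein gene of neurons, stood at 21.0 TP10K in clock neurons at ZT14 and 22.4 at ZT02, and the pan-neuronal elav at 6.23 and 6.22. ple, the tyrosine hydroxylase gene of DANs, was at 0.711 TP10K at ZT14 and 0.503 at ZT02, against 60.1 and 57.5 TP10K in DANs at the same times. A part of the cells that met the rule did not look like neurons: 90 of 517 at ZT14 (17.4%, exact binomial interval 14.2 to 21%) and 42 of 509 at ZT02 (8.25%, 6.01 to 11%) had fewer than 3 nSyb UMIs. In these low-nSyb cells the 7 glial markers summed to 26.7 TP10K at ZT14 and 15.2 at ZT02, against 3.77 and 4.95 for the 4 neuronal markers, while in all other clock neurons the glial markers summed to 0.278 and 0.460 TP10K. Haemocyte markers were also present in them (8.03 TP10K at ZT14 and 32.8 at ZT02), but in few cells for Hml. Over all clock neurons Hml had 447 UMIs in 4 cells at ZT14 and 615 in 8 cells at ZT02. The glial master gene repo had 1 UMI at ZT14 and 0 at ZT02. The low-nSyb cells were more frequent at ZT14. Leaving them out moved 7 of 100 named ratios by over 1.5 times, those of pyd, Pxn, Eaat1, Gs2, Hml, Rac2 and nrv2.

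The choice of cells used tim, vri, Clk and cry, so their levels are a description of the cells chosen. tim stood at 19.4 TP10K at ZT14 (10515 UMIs) and 2.15 at ZT02 (947 UMIs), a ratio of 9.01. vri was at 12.4 and 2.13 TP10K in the same order, a ratio of 5.84. Clk ran the opposite way, with 0.724 TP10K at ZT14 and 4.87 at ZT02 (ratio 0.149), and cry was at 3.49 and 7.26 TP10K (ratio 0.480). Every one of the 6 groups described below had tim and vri higher and Clk and cry lower at ZT14. For cry this did not hold throughout the group with none of the 5 peptides, which was split further after the data were seen. Its ratio there was 1.92 (1.59 to 2.32) in Trissin cells and 1.93 (1.35 to 2.79) in VGlut cells. It was 0.320 (0.185 to 0.552) in cells of that group with fewer than 3 nSyb UMIs, and the intervals of AstA cells and of the remaining cells included 1. As the 4 genes are not equally abundant at both times, the threshold takes different cells at each: 21 cells at ZT14 and 47 at ZT02 had exactly 3 UMIs of the 4 genes, and 44 and 76 had exactly 2 and were left out. In the cells just inside, Pdp1 was at 11.5 TP10K at ZT14 and 35.1 at ZT02, and just outside at 13.6 and 27.8. At the other limit, 60 cells at ZT14 and 63 at ZT02 had 1 Vmat UMI, with Pdp1 at 164 and 35.7 TP10K, and 8 and 11 cells with 2 Vmat UMIs were left out, with Pdp1 at 94.3 and 26.3 TP10K.

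The 4 rule genes could also be read in cells that were chosen with no clock gene, by 1 of the 5 peptides and 1 Vmat UMI or less. In 25 Pdf cells at ZT14 and 55 at ZT02 chosen in this way, tim was at 16.4 and 2.09 TP10K (ratio 7.83, 6.41 to 9.62) and Clk at 0.573 and 3.55 TP10K (ratio 0.161, 0.0952 to 0.259). Over the 5 such sets the ratio of tim ran between 3.43 in CCHa1 cells and 19.4 in AstC cells, that of vri between 2.52 and 10.2, that of Clk between 0.0549 and 0.450, and that of cry between 0.396 and 0.586. All 20 of these ratios therefore lay on the same side of 1 as in the clock neurons as a whole.

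Sums over all clock neurons mix subtypes whose shares differ between libraries, so each gene was also followed in 6 exclusive groups. A cell with 3 UMIs or more of a peptide and at least 100 (Pdf), 20 (CCHa1), 10 (CNMa), 10 (NPF) or 20 (AstC) TP10K was assigned in that order, and the others formed a group with none of these peptides. The Pdf group had 24 cells at ZT14 (4.64%, 3 to 6.83%) and 44 at ZT02 (8.64%, 6.35 to 11.4%), the CCHa1 group 31 and 42, the CNMa group 73 and 56, the NPF group 39 and 55, the AstC group 110 and 105, and the group with none 240 (46.4%, 42.1 to 50.8%) and 207 (40.7%, 36.4 to 45.1%). The intervals of the shares overlapped in every group, those of the Pdf group by the least. A gene was counted in a group where it had 30 UMIs or more over both libraries.

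Of the clock genes that did not choose the cells, Pdp1 and cwo were higher at ZT14 and per and cyc differed less. Pdp1, which encodes a bZIP activator of Clk and lies on 3L at 7811458 to 7867369 (dm6), stood at 155.5 TP10K at ZT14 (84210 UMIs) and 38.1 at ZT02 (16756 UMIs), a ratio of 4.08 (4.01 to 4.15). Its level per cell had a median of 140.7 TP10K with quartiles of 78.3 and 218.8 at ZT14, and a median of 39.6 with quartiles of 22 and 58.6 at ZT02, so the ranges between the quartiles did not overlap. The ratio was above 2 in each of the groups, with 78.2 and 14 TP10K in Pdf cells (5.6), 153.8 and 63.2 in CCHa1 cells (2.44), 106.1 and 37.2 in CNMa cells (2.85), 197.7 and 34.8 in NPF cells (5.68), 183.0 and 42.4 in AstC cells (4.31), and 160.5 and 40.7 in the group with none (3.95). Of the 6 groups, Pdf cells had the lowest Pdp1 level at both times. In Trissin cells, split from the group with none after the data were seen, Pdp1 was at 37.9 and 24.2 TP10K (1.56, 1.36 to 1.795). The other further-split cells had ratios of 3.11 to 5.21. In DANs Pdp1 was at 13.3 TP10K at ZT14 and 10.0 at ZT02, so the clock neuron ratio was 3.07 times the DAN ratio (2.97 to 3.17).

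cwo, the bHLH-Orange repressor of the loop (3R, 10388258 to 10400752), stood at 6.03 TP10K at ZT14 and 2.97 at ZT02 (ratio 2.03, 1.90 to 2.17), and at 1.10 and 1.13 TP10K in DANs. It was detected in 456 of the clock neurons at ZT14 and 376 at ZT02. The groups differed. CNMa cells (7.5 and 2.44 TP10K, ratio 3.07) and AstC cells (6.13 and 1.96, ratio 3.13) had the largest ratios of cwo, CCHa1 cells (2.36) and the group with none (2.35) lay near them, and NPF cells had 5.33 and 3.61 TP10K (1.48). In Pdf cells the level was 5.66 TP10K at ZT14 and 6.28 at ZT02, a ratio of 0.901 with an interval of 0.750 to 1.08, which does not overlap that of any other group. Of the 6 groups, Pdf cells were set apart by their ZT02 level, since their cwo level at ZT14 was within the range of the others. The group with none was not uniform when split further after the data were seen. Its Trissin cells had 3.68 and 4.48 TP10K of cwo (0.821, 0.532 to 1.23), and its low-nSyb cells had a ratio of 0.799 (0.584 to 1.105). Both intervals overlap that of Pdf cells. AstA cells, VGlut cells and the remaining cells had ratios of 3.31 to 3.75.

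per (X, 2685580 to 2692780) was at 6.69 TP10K at ZT14 and 5.48 at ZT02 (ratio 1.22, 1.16 to 1.28), under the 1.5-fold used for counting. Its ratio was 1.73 in NPF cells (7.11 and 4.10 TP10K), 1.49 in the group with none, 1.40 in CCHa1 cells and 1.23 in AstC cells, but 1.07 in CNMa cells (11.2 and 10.4 TP10K) and 1.01 in Pdf cells (9.93 and 9.82). The per count of these droplet data asks for care. In DANs, which were chosen for few UMIs of the rule genes, it was higher than in clock neurons, with 9.12 TP10K at ZT14 and 12.9 at ZT02, whereas in 8 CEL-seq2 libraries of TH-GAL4 cells at the same times it lay between 0.104 and 0.417 TP10K. The gene dyw overlaps per on the other strand. cyc, the partner gene of Clk, is sparse (178 UMIs at ZT14 and 111 at ZT02), with 0.329 and 0.253 TP10K and a ratio of 1.30 (1.02 to 1.67), and was counted in only 2 groups. None of the 4 genes passed 1.5-fold in DANs.

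**Figure D1:**
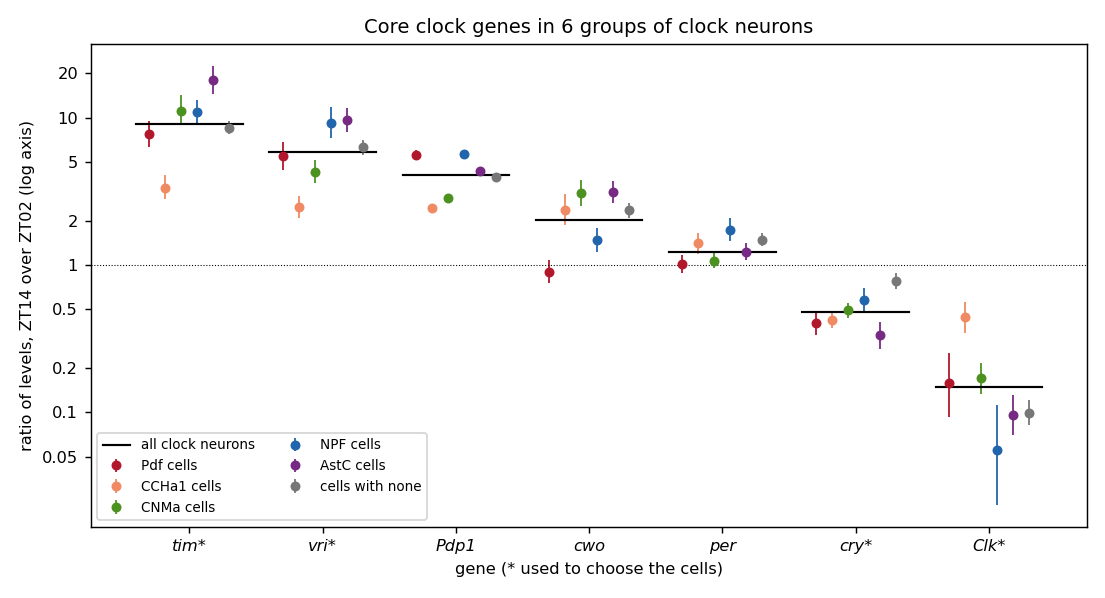
Ratio of levels at ZT14 over ZT02 (log axis) for 7 core clock genes; points are the 6 groups of clock neurons with exact 95% counting intervals, black bars the ratio over all clock neurons, and stars mark genes that chose the cells. Pdp1 lies between 2.44 and 5.68 in all groups, whereas cwo is at 0.901 in Pdf cells and at 1.48 or more in the others.

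**Figure D2:**
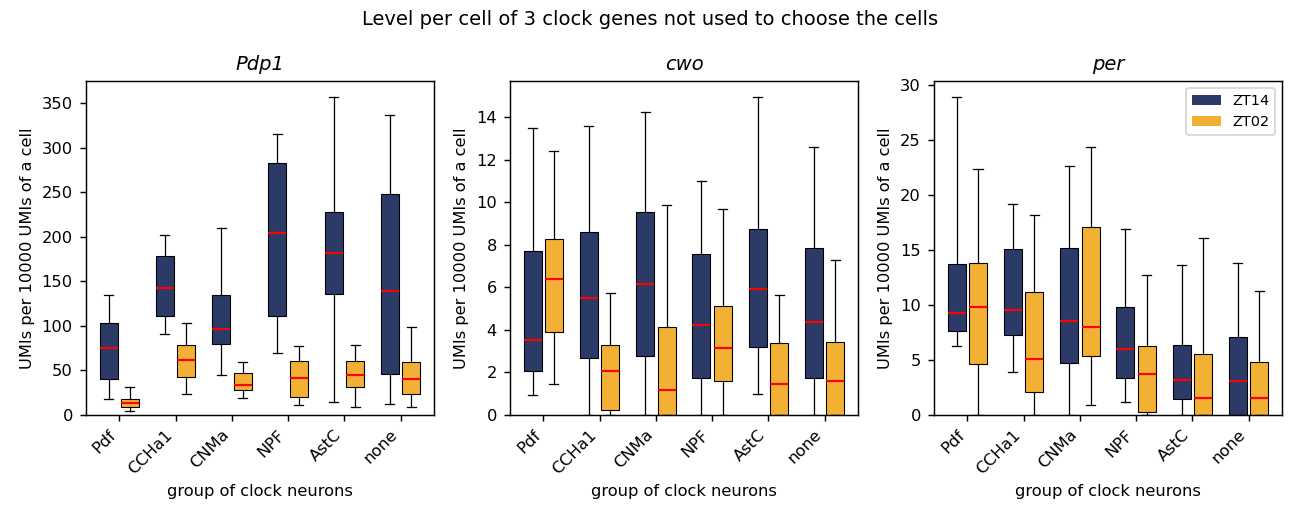
Level per cell (UMIs per 10000 UMIs of the cell) of Pdp1, cwo and per in the 6 groups, ZT14 boxes left of ZT02 boxes; boxes span the quartiles, red lines are medians and whiskers the 5th and 95th percentiles of cells. The Pdp1 boxes of the 2 times do not overlap in the 5 peptide groups and overlap in the group with none, while in Pdf cells the cwo median is 3.5 at ZT14 and 6.38 at ZT02.

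Across all genes, 4564 had 200 UMIs or more over both libraries, the rule genes and Vmat left out, and their median ratio was 1.02 with a 5th percentile of 0.666 and a 95th percentile of 1.95. Of these, 450 (9.86%) were at least 1.5-fold higher at ZT14 and 231 (5.06%) at least 1.5-fold lower. At 2-fold the counts were 218 (4.78%) higher and 80 (1.75%) lower. All these counts used the fold alone. The low-nSyb cells held most of the UMIs of 142 of the 450 higher genes and of 7 of the 231 lower ones. Without these cells, 337 of 4233 genes (7.96%) were higher and 222 (5.24%) lower, of which 278 were among the 450 and 190 among the 231. In DANs the counts were smaller, with 108 of 4360 genes (2.48%) higher and 113 (2.59%) lower, although DANs had more cells and more UMIs. Of the 322 higher genes that could be counted in both kinds of cell, 62 were also higher in DANs and 12 were lower, and of 216 lower genes, 26 were also lower in DANs and 7 were higher.

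The direction was then read across the groups. Among 3496 genes counted in 4 groups or more, 496 (14.2%) were higher at ZT14 in every group counted and 364 (10.4%) lower in every one, whatever the size. With a sum past 2-fold as well, 65 (1.86%) were higher and 40 (1.14%) lower. The 15 with the largest and the 15 with the smallest ratios of these, outside the 5 subtype peptides, are described next, and all 30 stayed past 2-fold without the low-nSyb cells. Since they were picked for their ratio and for their direction in these groups, both are a description.

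Besides Pdp1, the genes with the largest ratios that stayed within 1.5-fold in DANs were CG14082 (DAN ratio 1.01), CG14086 (1.24), CG15628 (1.35), CG32547 (1.38) and pyd (1.41). CG14082 (3L, 19105381 to 19138975, overlapping Spn75F on the same strand) stood at 3.15 TP10K at ZT14 and 0.523 at ZT02, a ratio of 6.02 (5.25 to 6.94), against 0.467 and 0.464 TP10K in DANs. It was detected in 334 clock neurons at ZT14 and 131 at ZT02. CCHa1 cells had 2.04 TP10K at ZT14 and 0 UMIs at ZT02. With 3 counts taken as the floor the ratio was 20.9, and the lower limit of its interval was 16.6. CG14086 (3L, 19275791 to 19279919) was scarcer, with 262 UMIs at ZT14 and 16 at ZT02 (ratio 13.3, 8.03 to 23.6), and its ratio in DANs was 1.24.

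CG15628 (2L, 4821774 to 4828945) was the most abundant of these, at 24.1 TP10K at ZT14 and 5.48 at ZT02 (ratio 4.40, 4.21 to 4.6), while DANs had 6.43 and 4.76 TP10K. It varied widely between groups. NPF cells had 72.1 and 5.92 TP10K (12.2), AstC cells 28.1 and 4.33 (6.5), Pdf cells 26 and 8.6 (3.03), and CCHa1 cells 7.36 and 3.92 (1.88). The ZT02 levels of the groups lay close together, between 3.92 and 8.6 TP10K, and the ZT14 levels between 7.36 and 72.1. CG31324, which RefSeq names Cipc after the vertebrate CLOCK-interacting pacemaker gene, stood at 9 TP10K at ZT14 and 1.84 at ZT02 (ratio 4.89, 4.54 to 5.27). In DANs it was at 0.817 and 0.404 TP10K (2.02), and the clock neuron ratio was 2.42 times that of DANs (2.08 to 2.80). CCHa1 cells carried it at both times (23.7 and 11.7 TP10K, ratio 2.04), NPF cells almost only at ZT14 (7.18 and 0.300 TP10K, 24.0).

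pyd, which encodes a scaffold protein of the ZO-1 family at cell junctions, had 3.42 TP10K at ZT14 and 0.889 at ZT02 (ratio 3.84, 3.44 to 4.30), but 2.17 without the low-nSyb cells and 1.01 in CCHa1 cells. CNMa cells stood apart, with 2.30 TP10K at ZT14 and 0.119 at ZT02 (19.3). CG32547 was at 2.22 and 0.573 TP10K (ratio 3.88, 3.38 to 4.46), highest in NPF cells at ZT14 (5.97 and 0.730 TP10K). Mct1, a gene for a monocarboxylate transporter, was at 0.482 and 0.120 TP10K (ratio 4, 2.96 to 5.48) with a DAN ratio of 1.71.

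The other 7 of the 15 were the mitochondrially encoded complex I genes mt:ND1, mt:ND2, mt:ND3, mt:ND4, mt:ND5 and mt:ND6 and the inducible chaperone gene Hsp70Bc, and these were higher in DANs too. mt:ND1 was at 3.58 TP10K at ZT14 and 0.571 at ZT02 in clock neurons (ratio 6.27, 5.49 to 7.18) and at 3.67 and 0.612 TP10K in DANs (5.99), so that the ratio of the ratios was 1.05 (0.890 to 1.23). All 11 mitochondrially encoded protein genes that could be counted were past 1.5-fold in both kinds of cell, with a median ratio of 4.85 in clock neurons and 3.35 in DANs. Together they took 1.46% of the UMIs of clock neurons at ZT14 and 0.522% at ZT02, and 1.14% and 0.551% of those of DANs. Whether the difference comes from the time of day or from the handling of the libraries cannot be told apart. Hsp70Bc, one of several near-identical Hsp70 copies among which reads can be split, was at 1.81 TP10K at ZT14 and 0.459 at ZT02 (ratio 3.93, 3.37 to 4.6), against 1.53 and 0.434 TP10K in DANs (3.52).

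The 15 genes with the smallest ratios differed more from DANs: only CG17777 was also past 1.5-fold lower there, at levels under 1 TP10K, and 14 had a clock neuron ratio below the DAN ratio beyond counting error. Argk, the arginine kinase gene that buffers ATP (Argk1 in RefSeq), had the smallest ratio, with 4.53 TP10K at ZT14 (2454 UMIs) and 28.7 at ZT02 (12629 UMIs), a ratio of 0.158 (0.151 to 0.165). Per cell the median was 3.20 TP10K with quartiles of 1.38 and 5.87 at ZT14, and 24.8 with quartiles of 9.05 and 43.4 at ZT02. DANs had 12.3 TP10K at ZT14 and 15.1 at ZT02 (0.819), a level between those of clock neurons at the 2 times. CNMa cells had 7.42 and 58.9 TP10K (0.126), AstC cells 3.64 and 30.2 (0.121), NPF cells 5.49 and 32.4 (0.170), Pdf cells 3.21 and 14.3 (0.224), and CCHa1 cells 2.77 and 5.78 (0.480). The spread between the groups was thus larger at ZT02 than at ZT14.

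CG17777 (X, 2186855 to 2187741) stood at 8.27 TP10K at ZT14 and 40.5 at ZT02 (ratio 0.204, 0.198 to 0.211), and at 0.0959 and 0.663 in DANs (0.145). Pdf (0.155) and CCHa1 (0.133), peptides of clock neurons, had like ratios in DANs, and the part of carried-over RNA in these was not tested. In cells with none of the 5 peptides, split further after the data were seen, CG17777 was higher at ZT14 in VGlut cells (96 and 11 UMIs, ratio 7.01, 3.75 to 14.51) and AstA cells (1.40, 1.11 to 1.75). Its levels were highest in CCHa1 cells (17.7 TP10K at ZT14 and 137.6 at ZT02) and NPF cells (26 and 98.2 TP10K), and in NPF cells it was found in 38 of 39 cells at ZT14 and 55 of 55 at ZT02. Pdf cells had 5 UMIs in 2 cells at ZT14 and 418 UMIs in 21 cells at ZT02. CG43902 (X, 10158434 to 10195337) was at 2.66 and 13.5 TP10K (ratio 0.197, 0.186 to 0.209), mostly in Pdf cells (17.6 and 57.2 TP10K) and CNMa cells (7.66 and 35.5 TP10K), and was found at 1.84 and 2.26 TP10K in DANs. In VGlut cells CG43902 ran the other way (162 and 54 UMIs, ratio 2.41, 1.76 to 3.34). No other of the 30 genes had a further-split group of 30 UMIs or more whose interval lay on the other side of 1.

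The short neuropeptide F precursor gene sNPF was at 2.07 TP10K at ZT14 and 11.7 at ZT02 (ratio 0.176, 0.165 to 0.188), while in DANs it was at 1.04 and 0.608 TP10K (1.70). In the Pdf group, where nearly every cell carried it (21 of 24 at ZT14 and 42 of 44 at ZT02), the level was 4.72 and 33.4 TP10K, with medians per cell of 3.76 and 34.7. The group with none had 4.08 TP10K at ZT14 and 19.2 at ZT02, and the remaining groups had 1.38 or less. sNPF depends on which cells are summed: the ratio was 0.729 in cells chosen by a peptide with no clock gene in the rule.

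Of the others, Nhe2, a sodium/proton exchanger gene, was at 0.310 TP10K at ZT14 and 1.30 at ZT02 (ratio 0.238, 0.199 to 0.283) and below 1 in all 6 groups. nrv1, a beta subunit gene of the sodium pump, was at 0.465 and 1.68 TP10K (0.276), and Best1, a gene for a calcium-activated chloride channel, at 0.253 and 0.985 TP10K (0.257). CG1090 was at 0.777 and 2.88 TP10K (0.270). Oamb, an octopamine receptor gene, stood at 0.343 TP10K at ZT14 and 1.19 at ZT02 (0.288, 0.242 to 0.341), with 0.228 and 3.02 TP10K in NPF cells and 0.785 and 2.71 in CCHa1 cells, and was level in DANs (1.21 and 1.16 TP10K). CG11300, CG32369, CG32052, CG32432, CG31808 and Lmpt, a LIM domain protein gene, made up the rest, with ratios between 0.197 and 0.296 and DAN ratios between 0.727 and 1.41.

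**Figure D3:**
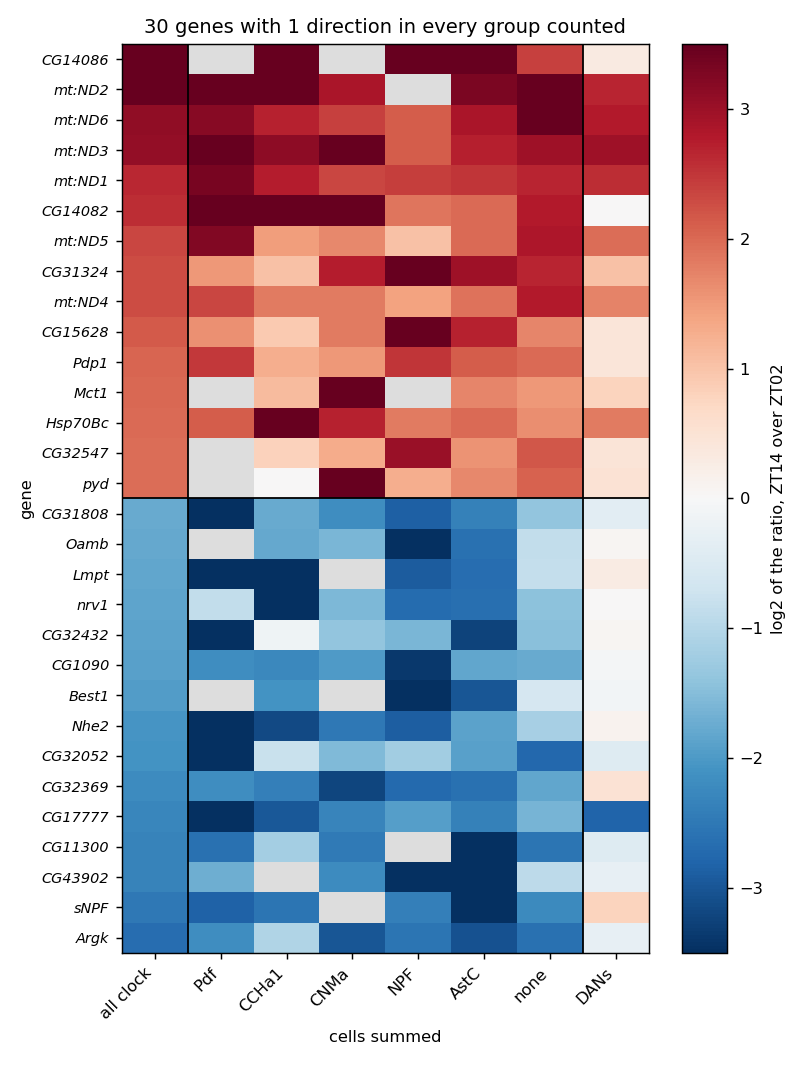
log2 of the ratio of levels, ZT14 over ZT02, for the 15 genes with the largest and the 15 with the smallest ratios (rows) in all clock neurons, the 6 groups and DANs (columns); grey cells had under 30 UMIs and colours end at 3.5 in either direction. Most of the higher genes outside the mitochondrial set and Hsp70Bc, and the lower genes other than CG17777 and sNPF, are pale in the DAN column.

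Some of these genes lie beside each other. On 3L, Clk, CG32369 and Pdp1 follow one another on the same strand with 1501 and 1632 bases between them, and their ratios were 0.149, 0.219 and 4.08. CG32369 was at 0.615 TP10K at ZT14 and 2.81 at ZT02 in clock neurons, with ratios between 0.108 and 0.282 over the 6 groups, but at 1.42 and 1 TP10K in DANs. On the X chromosome CG17777 (0.204) and Mct1 (4) are 1446 bases apart on the same strand. These pairs were noticed after the values were seen.

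Of 41 listed neuropeptide precursor genes, 19 could be counted, of which 10 (52.6%) were at least 1.5-fold lower at ZT14 and 3 (15.8%) higher, where 5.06% and 9.86% of all genes were. In DANs 6 of 17 were lower and 3 higher, against 2.59% and 2.48% of the genes counted in both kinds of cell. The list had a median ratio in clock neurons of 0.602 against 1.02 over all genes and 0.862 for the list in DANs. The shares of the subtypes that make these peptides also differed between the libraries, so levels within the groups are given beside the sums. Pdf itself was at 162.3 TP10K at ZT14 and 392.4 at ZT02 in the sum (ratio 0.413, 0.410 to 0.417), but within the Pdf group, which was chosen by it, at 2650 and 3109 TP10K (0.852), with medians per cell of 2812 and 3132. With the 6 groups weighted equally the ratio was also 0.852. CCHa1 was at 12.2 TP10K at ZT14 and 21.6 at ZT02 (0.562), and in its own group at 172.2 and 310.0 TP10K (0.556). CNMa was the one of the 5 that was higher at ZT14, with 14 and 6.71 TP10K (ratio 2.08, 1.99 to 2.17), and in its own group 98.4 and 56.6 TP10K with medians per cell of 87.3 and 29.9.

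AstC, the allatostatin C gene, was at 89.8 TP10K at ZT14 and 119.6 at ZT02 (0.751), and at 225.5 and 306.3 TP10K in CNMa cells (0.736), which also make it and were not chosen by it. NPF was at 4.14 and 15.2 TP10K (0.272, 0.260 to 0.286) and in its own group at 46.5 and 123.2 TP10K, in contrast to 1.52 TP10K at ZT14 and 0.381 at ZT02 in DANs (3.98). Its ratio rests on where the clock rule stops, as it was 0.989 when 2 UMIs of the rule genes were enough and 0.991 in cells chosen by peptides alone.

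Dh31, a diuretic hormone gene that CNMa cells also carry, stood at 19.6 TP10K at ZT14 and 39.3 at ZT02 (0.499, 0.487 to 0.512), at 121.9 and 220.0 TP10K in CNMa cells (0.554) and at 21.7 and 34.6 TP10K in Pdf cells (0.628), while DANs had 3.40 and 2.70 TP10K. In AstC cells it was at 2.84 and 37.3 TP10K (0.0762), but only 26 of 110 cells at ZT14 and 33 of 105 at ZT02 carried it. The median per AstC cell was 0 at both times, and 1 cell held 68.1% of these UMIs at ZT14. ITP, the ion transport peptide gene, was at 37.5 and 95.6 TP10K (0.392) and was carried by few cells, 8 in the NPF group at ZT14 (19230 UMIs) and 21 at ZT02 (41530 UMIs). In Pdf cells 957 ITP UMIs at ZT14 came from 1 cell. Trissin was at 18 TP10K at ZT14 and 61.1 at ZT02 (0.294), but with the groups split further, a choice made after the data were seen, 7 Trissin cells at ZT14 and 20 at ZT02 were found and an equal weight of 9 groups gave 1.07. Tk, outside the rule for named genes and chosen after its values were seen, had 276 UMIs in 12 cells at ZT14 and 11 UMIs in 7 cells at ZT02.

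Of 16 counted genes that process and release peptides, 5 (31.2%) were past 1.5-fold lower and 0 higher, where 5.06% and 9.86% of all genes were, with a median of 0.778 (1.07 in DANs). Their summed level was 303.3 TP10K at ZT14 and 304.6 at ZT02, and 338.1 and 319 without the low-nSyb cells. amon, the prohormone convertase that cuts most precursors, stood at 4.62 TP10K at ZT14 and 11.5 at ZT02 (ratio 0.402, 0.383 to 0.422) and was below 1 in all 6 groups, from 0.201 in AstC cells (3.10 and 15.4 TP10K) to 0.858 in NPF cells (7.89 and 9.19). DANs had 12.2 and 10.7 TP10K, and the clock neuron ratio was 0.354 times the DAN ratio (0.334 to 0.374). The carboxypeptidase gene svr was at 6.39 and 10.6 TP10K (0.604), lowest in ratio in CNMa cells (7.07 and 24.2 TP10K, 0.292). Pal2, an enzyme of peptide amidation, was at 5.76 and 9.26 TP10K (0.621), and CrebA, a bZIP factor of the secretory pathway, at 0.966 and 1.51 TP10K (0.638) in clock neurons and 0.904 and 1.54 in DANs (0.587). Unlike amon, these 3 were not lower in every group. The ratio of svr was above 1 in 2 of 6 groups and that of Pal2 in 1 of 6 (1.10 in CCHa1 cells, 0.904 to 1.33). That of CrebA was above 1 in 1 of 5 (1.415 in AstC cells, 1.07 to 1.88).

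Of 18 counted neuropeptide receptor genes, 9 (50%) were at least 1.5-fold higher at ZT14 and 1 (5.56%) lower, where 9.86% and 5.06% of all genes were. The median was 1.33, and 1.17 without the low-nSyb cells. In DANs 2 of 15 were higher and 1 lower (median 1.29), where 2.48% and 2.59% of the genes counted in both kinds of cell were. TrissinR, the receptor of the peptide Trissin, had 1.97 TP10K at ZT14 and 0.487 at ZT02 (ratio 4.04, 3.49 to 4.70), chiefly in AstC cells (6.09 and 1.66 TP10K) and NPF cells (2.53 and 0.599 TP10K). SPR, which binds sex peptide and myoinhibitory peptides, was at 1.15 and 0.555 TP10K (2.07, 1.78 to 2.41), and Dh44-R2 at 0.790 and 0.300 TP10K (2.63, 2.16 to 3.22). FMRFaR was at 0.746 and 0.464 TP10K (1.61), above 1 in AstC cells (2.27) but not in CNMa cells (0.776) or the group with none (0.764), and at 1.06 with 9 groups weighted equally.

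Receptor genes for amines and fast transmitters were divided, with 4 of 34 (11.8%) higher and 5 (14.7%) lower past 1.5-fold, against 9.86% and 5.06% of all genes (median 0.971, and 1.14 in DANs, where 0 of 34 passed). nAChRalpha6, a nicotinic receptor subunit, was at 9.09 TP10K at ZT14 and 4.89 at ZT02 (1.86, 1.77 to 1.96) and above 1.5 in every group, the highest ratio being 4.24 in Pdf cells. The dopamine receptor genes differed: Dop1R1 was at 2.64 and 1.55 TP10K (1.71, 1.56 to 1.87), with a ratio of 13.8 in CNMa cells and of 0.775 to 1.43 in the other groups counted, and Dop1R2 at 0.875 and 1.32 TP10K (0.664), with 6.11 in CNMa cells and 0.486 in the group with none. Octbeta1R was at 1.40 and 0.883 TP10K (1.59), again with the largest ratio in CNMa cells (12.5). Of the 6 groups, CNMa cells therefore had the largest ratio of these 3 receptor genes. The group with none, split further after the data were seen, was not uniform for Dop1R1. Its ratio was 10.2 (6.32 to 17.1) in AstA cells and 0.116 (0.0309 to 0.305) in Trissin cells, with 1.63 in VGlut cells and 1.12 in the remaining cells. Of 6 transmitter synthesis and vesicular transport genes only Gs2 passed 1.5-fold, a glial marker that was at 0.0436 TP10K at ZT14 and 0.0288 at ZT02 outside the low-nSyb cells.

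Of 29 voltage-gated and leak channel genes 7 (24.1%) were at least 1.5-fold higher and 0 lower, against 9.86% and 5.06% of all genes, with a median of 1.26 (1.33 without the low-nSyb cells), whereas 0 of 27 passed in either direction in DANs (median 1.18). SK, the calcium-activated potassium channel gene, was at 13.6 TP10K at ZT14 and 6.08 at ZT02 (ratio 2.23, 2.14 to 2.33), and at 6.83 and 6.43 TP10K in DANs. It was above 1 in all 6 groups, from 1.08 in NPF cells to 7.51 in CNMa cells. Ca-alpha1T, the T-type calcium channel gene, was at 6.82 and 4.32 TP10K (1.58) and at 7.06 and 5.05 TP10K in DANs (1.40). Hk, the beta subunit of Shaker channels, was at 6.18 and 3.32 TP10K (1.86, 1.75 to 1.98), above 1.4 in every group, and Trpm, a cation channel gene, at 2.44 and 0.908 TP10K (2.69, 2.40 to 3.02), above 1.8 in every group. The rhodopsin gene Rh7 was at 3.51 and 1.62 TP10K (2.17) but also had a DAN ratio of 1.84.

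Of 25 genes of cAMP and calcium signalling 5 (20%) were lower and 1 (4%) higher, against 5.06% and 9.86% of all genes, with a median of 1.02. Ac13E, an adenylyl cyclase gene, was at 1.69 TP10K at ZT14 and 3.28 at ZT02 (0.514, 0.473 to 0.559), from 0.133 in AstC cells to 1.17 in the group with none, and rut, the calcium-dependent adenylyl cyclase of learning, at 1.48 and 0.901 TP10K (1.64, 1.45 to 1.85), above 1.4 in all groups. Pka-C1, the catalytic subunit of protein kinase A, was at 7.09 and 11.9 TP10K (0.597), and its regulatory subunit Pka-R1 at 4.68 and 7.42 (0.631). In CNMa cells both were lowest in ratio of the peptide groups, at 0.336 and 0.438. DANs had 9.82 and 10.3 TP10K of Pka-C1.

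Over all genes 14.9% passed 1.5-fold in either direction. Kinase, phosphatase and ubiquitin pathway genes that act on clock proteins were mostly level, with 14 of 16 within 1.5-fold and a median of 1.01. The 2 exceptions were nmo, the Nemo kinase gene, at 9.68 TP10K at ZT14 and 20.3 at ZT02 (ratio 0.477, 0.461 to 0.494) and below 0.67 in all 6 groups, and Usp8, a deubiquitinase gene, at 0.563 and 0.207 TP10K (2.72, 2.15 to 3.48). The group with none, split further after the data were seen, was not uniform for nmo. Its Trissin cells had 39.9 and 31.5 TP10K (1.27, 1.11 to 1.44), and its low-nSyb cells a ratio of 1.32 (0.805 to 2.25). The ratio was 0.479 in AstA cells, 0.695 in VGlut cells and 0.762 in the remaining cells. DANs had 8.63 and 9.07 TP10K of nmo. Among 8 regulators of RNA and translation, Rbfox1, an RNA-binding protein gene, alone passed 1.5-fold, at 13.2 and 5.57 TP10K (2.38, 2.27 to 2.49) and between 1.64 and 5.19 in the groups. Of 8 known rhythmic output genes, Rh7 and Fas2 were higher and Amph, the amphiphysin gene, was lower (0.916 and 1.46 TP10K, 0.629), though its direction differed among groups, from 0.167 in NPF cells to 1.63 in CNMa cells.

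Genes that respond to neuronal activity gave no common direction, with 5 of 13 (38.5%) higher and 3 (23.1%) lower, where 9.86% and 5.06% of all genes were. Their median was 1, and 0.875 without the low-nSyb cells. In DANs 0 of 12 were higher and 5 lower, where 2.48% and 2.59% of the genes counted in both kinds of cell were. Hr38, a nuclear receptor gene induced by activity, was at 3.5 TP10K at ZT14 and 6.75 at ZT02 (0.519, 0.489 to 0.550) and at 4.20 and 7.18 TP10K in DANs (0.585). It was below 1 in 5 groups and at 3.76 in Pdf cells. cbt, the Cabut repressor gene, was at 2.08 and 1.04 TP10K (2, 1.79 to 2.24), above 1.3 in all groups, highest in Pdf cells (6.78), and at 1.30 and 1.55 TP10K in DANs (0.843). CG13868 was at 5.80 and 3.39 TP10K (1.71) and puc, the JNK phosphatase gene, at 1.85 and 1.23 TP10K (1.5). Of 15 heat shock genes 5 (33.3%) were past 1.5-fold higher and 0 lower in clock neurons, against 9.86% and 5.06% of all genes. In DANs 5 of 15 were higher and 0 lower, against 2.48% and 2.59% of the genes counted in both kinds of cell. The summed level of the heat shock list in clock neurons was 63.5 TP10K at ZT14 and 59.9 at ZT02. Hsp26 was at 6.88 and 3.61 TP10K (1.90) in clock neurons and 7.95 and 3.70 in DANs (2.15), and Hsp68 at 2.16 and 0.767 TP10K (2.82) and 2.44 and 0.817 (2.99). Hsp67Bc was at 0.943 and 0.594 TP10K (1.59) with a DAN ratio of 1.37. Of 10 insulin and nutrient genes 1 passed, REPTOR-BP, a bZIP factor downstream of TORC1 (2.10 and 1.30 TP10K, 1.62).

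Cell surface genes were spread around 1. Of the dpr and DIP families 4 of 27 (14.8%) were higher and 4 (14.8%) lower (median 0.996), against 9.86% and 5.06% of all genes. dpr13 was at 8.59 TP10K at ZT14 and 4.02 at ZT02 (2.14, 2.02 to 2.26) and above 1.5 in all 6 groups, while DIP-delta (0.510), DIP-theta (0.567) and dpr6 (0.661) had ratios of 0.405, 0.391 and 0.569 in the group with none. dpr6 ran the other way in NPF cells (1.51, 1.2 to 1.91), and DIP-delta was at 1.11 in AstC cells (0.896 to 1.39). Of 51 other adhesion and guidance genes 6 (11.8%) were higher and 3 (5.88%) lower (median 1.14), near the 9.86% and 5.06% of all genes. Nrt, a neurotactin gene, was at 6.02 and 3.14 TP10K (1.92) but 1.32 without the low-nSyb cells, Dscam4 at 5.6 and 3.73 TP10K (1.5), Fas2 at 1.12 and 0.571 TP10K (1.96), with 6.28 in Pdf cells, and Fas3 at 1.14 and 2.09 TP10K (0.545). Fas2 was higher in 2 of the 4 groups counted. It was at 0.966 in NPF cells and 0.703 in AstC cells, with intervals that include 1, and at 1.59 in the sum without the low-nSyb cells. Among 12 genes linked to the daily remodelling of clock neuron arbours 3 (25%) were higher and 1 (8.33%) lower (median 1.11). Over all genes these shares were 9.86% and 5.06%. Mmp2, a matrix metalloprotease gene, was at 11.1 and 21.1 TP10K (0.524), from 0.354 in AstC cells to 6.30 in NPF cells, and Sik3 at 1.09 and 0.544 TP10K (2.01). Sik3 was above 1 in 4 of 6 groups, with 0.749 in NPF cells and 0.948 in CCHa1 cells, both with intervals that include 1. Rac2 (285 UMIs at ZT14 and 142 at ZT02) had all but 1 of its UMIs in the group with none, which holds most low-nSyb cells.

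The 25 counted synaptic vesicle and active zone genes were nearly level, with a median of 1.03. Of these 0 were higher and 1 lower, against 9.86% and 5.06% of all genes. The 1 was cpx, the complexin gene, at 10.1 TP10K at ZT14 and 15.6 at ZT02 (0.644, 0.621 to 0.667) and between 0.558 and 0.733 in all 6 groups, against 65.2 and 77.8 TP10K in DANs (0.839). The 81 counted cytosolic ribosomal protein genes had a median of 0.938 with 3 (3.7%) higher and 0 lower, against 9.86% and 5.06% of all genes. Of the 80 counted in 4 groups or more, 25 were lower at ZT14 in every group counted and 9 higher. Over all genes these shares were 10.4% and 14.2%. In DANs the median was 0.828, with 3 of 81 higher and 1 lower, where 2.48% and 2.59% of the genes counted in both kinds of cell were. Of 21 transcription factor genes of neuronal identity, 2 (9.52%) were higher and 1 (4.76%) lower (median 1.12), near the shares of all genes. Lim1, a LIM-homeodomain factor gene, was at 8.38 and 3.33 TP10K (2.52, 2.37 to 2.67), above 1.8 in the 4 groups counted, with a DAN ratio of 1.8. pdm3 was at 3.93 and 1.51 TP10K (2.61), with 4.31 in CNMa cells but 0.578 in AstC cells and 0.277 in the group with none. Fer2 was at 0.270 and 0.721 TP10K (0.374) in the sum. Within the groups counted its ratio was 0.603 in Pdf cells, 0.903 (0.594 to 1.36) in NPF cells and 0.365 in the group with none. Tbh, the gene for the last step of octopamine synthesis, was at 2.43 and 4.12 TP10K (0.590, 0.549 to 0.633), below 1 in all 6 groups, and at 0.790 and 0.466 TP10K in DANs (1.70). Trh, listed as a serotonergic marker, had 21 UMIs at ZT14 and 274 at ZT02. Of the ZT02 UMIs, 226 came from 4 cells of the group with none, and 1 cell held 60.6% of these. The symbol matched 3 RefSeq genes (trh, Trhn and Hn), so which gene was counted is not settled.

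**Figure D4:**
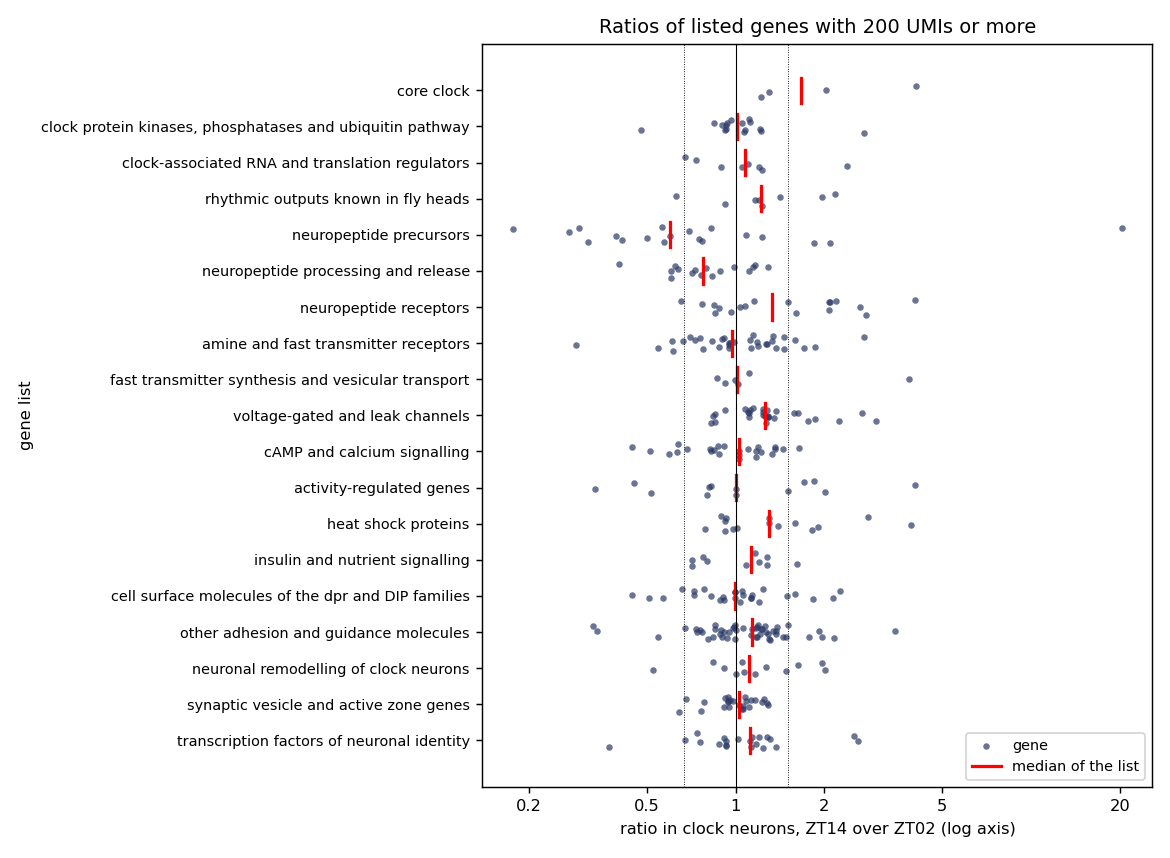
Ratio of levels at ZT14 over ZT02 in clock neurons (log axis) for listed genes with 200 UMIs or more, 1 point a gene and 1 row a list; red lines are medians and dotted lines mark 1.5-fold. Marker lists are left out. Of the lists shown, neuropeptide precursors have the lowest median (0.602), and neuropeptide receptors have a median of 1.33.

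**Figure D5:**
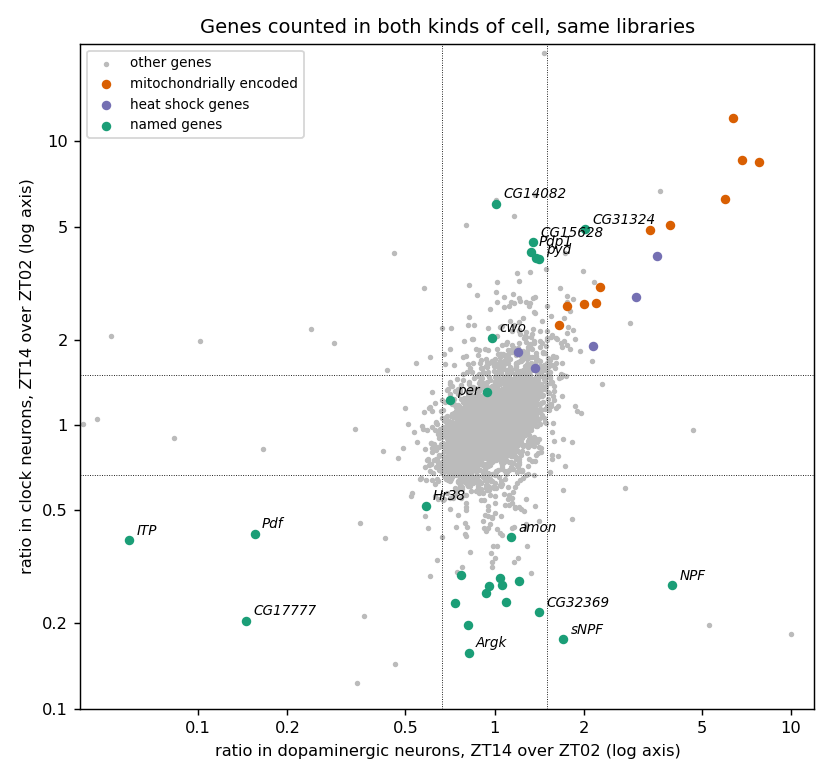
Ratio at ZT14 over ZT02 in clock neurons against that in DANs of the same libraries (log axes) for 4360 genes counted in both; dotted lines mark 1.5-fold. Mitochondrially encoded genes lie past 1.5-fold on both axes, whereas Pdp1, CG14082, CG15628 and Argk lie past it in clock neurons and within it in DANs.

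Among the samples used here, the only replicated libraries at these times were the 8 CEL-seq2 libraries of the TH-GAL4 line. Of their 512 cells, 2 met the clock neuron rule, so the comparison could not be repeated in these libraries. The authors state that their 9025 filtered cells also took in clock neurons that they had sequenced before. Whether the 3329 unused cell columns hold such cells at ZT14 and ZT02 was not examined, so the comparison was not tried in them.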

How the data were processed

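The authors sequenced 10X Chromium 3′ libraries, mapped reads to dm6, counted UMIs on annotated exons with Cell Ranger 6.0.2, and removed poor cells and doublets before deposit. The deposited values are counts of UMIs per gene and cell, not normalized. Of 9025 cell columns, 3329 that match no sample used here were not used, nor were 91 spike-in rows. Cells were used as deposited, grouped by the time in the labels and by the gene rules in the report. UMIs were summed per library, and a ratio of TP10K levels was given the exact conditional binomial interval at 95%. The ratio of the clock neuron to the DAN ratio had the exact conditional odds ratio interval. A sum of 0 was replaced by 3 counts. The code was tested on simulated data.

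Named were the core clock genes, the 15 largest and 15 smallest ratios past 2-fold with 1 direction in every group counted (4 or more), the 5 peptides, and up to 4 genes per list past 1.5-fold with the most UMIs, 100 in all. Cells and lists were chosen with earlier results of these data known. Marker lists of fat body, muscle and photoreceptors summed to 0.151 TP10K or less in clock neurons, and the dosage compensation RNAs had 0 UMIs. Alternatives were TMM scaling (edgeR 4.0.16), median-of-ratios scaling, other totals, cell weights, filters, cell rules and peptide minima. Positions of 97 of 100 named genes are from the BDGP6.54 annotation (dm6 coordinates), and other names from RefSeq. Sums and intervals were computed in Python (3.11.15) with scipy (1.17.1), numpy (2.4.6) and pandas (2.3.3), TMM in R (4.3.3), and plots in matplotlib (3.10.9).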

Additional observations from a re-analysis of the deposited data

Results flagged for a closer look

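NPF, sNPF and Tbh had ratios past 1.5-fold in opposite directions in clock neurons and in DANs of the same libraries. NPF had a ratio at ZT14 over ZT02 of 0.272 in clock neurons and 3.98 in DANs, sNPF 0.176 and 1.70, and Tbh 0.590 and 1.70. The clock neuron ratio was 0.0684 times the DAN ratio for NPF (0.0601 to 0.0778), 0.103 for sNPF (0.0912 to 0.117) and 0.347 for Tbh (0.301 to 0.401), intervals that cover counting error only. With 1 library per time point the difference between the kinds of cell was not tested beyond that. NPF lost its ratio in clock neurons when 2 UMIs of the rule genes were enough (0.989) and in peptide-chosen cells (0.991), and sNPF was at 0.729 in the peptide-chosen cells.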

How the results depend on the processing

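The numbers of genes at least 1.5-fold higher (450) and lower (231) at ZT14, of 4564 tested, followed the filter on low counts, which also set the number tested. They were 881 and 407 of 6885 genes at 50 UMIs and 1944 and 1289 of 9869 with no filter beyond 1 UMI. At 1000 UMIs they were 151 and 109 of 1687. Cells of the 5 peptide groups chosen without a clock gene gave 297 higher and 184 lower genes of 3878. The remaining alternatives gave 337 to 476 higher and 214 to 293 lower, with 4039 to 4803 genes tested. Some named genes crossed 1. In the peptide-chosen cells this held for Dop1R2 (1.22), Eaat1 (0.685), Hml (1.37), Rac2 (0.914) and nrv2 (0.640), without the low-nSyb cells for Eaat1 (0.303), Hml (78.7) and nrv2 (0.584), and with equal weight of 9 groups, added after seeing the data, for Eaat1 (0.217), Gs2 (0.704), Hml (231), Trissin (1.07) and nrv2 (0.572). No other named ratio past 1.5-fold did, but 381 values of named ratios under the alternatives moved beyond their counting interval, among them 57 of 100 with 6 groups weighted equally and 54 in the peptide-chosen cells. The causes were not tested. Hml was found in only 4 clock neurons at ZT14 and 8 at ZT02, so its ratios rest on few cells. With the peptide minima halved or doubled, 64 and 61 named genes had 1 direction in every group counted, against 63. No paired analysis was possible because each time point had 1 library. Depth limits genes under 200 UMIs.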
